A study of Mus musculus with 9 samples.

Results

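The 55 genes described here encode enzymes that modify transfer RNA, and their partner subunits, other than the enzymes of t6A synthesis. They were chosen by function, with earlier results of these data known, and all 55 were found among the 22396 genes of the counts. Transfer RNAs carry many chemical marks. Marks in the anticodon loop tune how codons are read, while marks in the body of the molecule hold its fold. Most are placed by 1 dedicated enzyme or a small complex, and several enzymes work in mitochondria.

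All RNA came from the mouse melanoma line B16F10, made to express RIG-I, a cytoplasmic RNA sensor, with a FLAG tag in every group. Cells of the shCtr group received a control hairpin, and those of shOSGEP#1 and shOSGEP#2 a hairpin that targets Osgep, which encodes the catalytic subunit of t6A synthesis (3 libraries per group). RNA bound to FLAG-RIG-I was recovered by immunoprecipitation and sequenced. A value is the share of an mRNA among the counts assigned to genes in the recovered RNA. No unprecipitated library was analysed here, and a change in binding and a change in mRNA level cannot be told apart. The replicates are described as independent experiments in the study, and p-values measure the spread between these libraries. In bulk RNA, fewer cells of a type and less RNA per cell cannot be told apart.

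Each hairpin is listed with 41 bases, and which of them form the target is not marked. All 41 match the Osgep transcript, and the central 21, from listed base 11 on, were taken by position. The places below are those of these 21 bases. Both match Osgep on the minus strand of chromosome 14 in GRCm38, the first in the 3′ UTR at chr14:50915705-50915725 and the second in the coding sequence, across an exon junction, at chr14:50917495-50917847.
shOSGEP#1: ccaacatgacgccacaataaa
shOSGEP#2: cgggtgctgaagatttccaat

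The shCtr libraries hold 40333037, 47750758 and 41805753 counts for replicates 1, 2 and 3. Those of shOSGEP#1 hold 34551436, 50224299 and 30697653 counts, and those of shOSGEP#2 25460689, 568995 and 14914731. At these depths 3 counts equal 0.0597 to 0.201 CPM (counts per 1000000 of the library total), and 5.27 CPM in shOSGEP#2 replicate 2. Replicate 2 of shOSGEP#2 is shallow and stands apart, with a count for 11 of 55 members where every other library had a count for all 55. It is therefore shown separately, and the comparisons use the other 8 libraries, so shOSGEP#2 below means replicates 1 and 3. A gene is called below where its p from edgeR's quasi-likelihood test, after Benjamini-Hochberg adjustment over all tested genes, is under 0.01. Leaving that library out decides the calls, and it was chosen knowing the result with all 9. With all 9 libraries edgeR called 0 genes and 0 members in each of the 4 comparisons. The number of members at an unadjusted p under 0.05 was then 1, 3, 0 and 1, in the order shOSGEP#1, shOSGEP#2, both hairpins together, and shOSGEP#2 against shOSGEP#1, beside 5.03%, 10.1%, 6.62% and 10.7% of all genes. DESeq2 on all 9 called 122, 350, 176 and 408 genes in that order (0.929%, 2.73%, 1.34% and 3.11%) and 0 members. It gave 2, 5, 2 and 6 members at that unadjusted p, beside 7.70%, 13.3%, 8.99% and 14.5% of all genes.

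Osgep (ENSMUSG00000006289) had 19.1, 19.9 and 15.5 CPM in shCtr, 3.76, 1.15 and 1.53 CPM in shOSGEP#1, and 0.0786 and 2.88 CPM in shOSGEP#2. Each of the 5 shOSGEP libraries lay far below the 3 shCtr libraries, and the shallow library had 0 counts. The log2 fold change against shCtr was −3.10 (SE 0.734, edgeR adjusted p = 0.0128) for shOSGEP#1, −3.84 (SE 0.934, edgeR adjusted p = 0.0150) for shOSGEP#2 and −3.47 (SE 0.644, edgeR adjusted p = 0.00406) for both together, so that in this fit only the last passed the threshold. Osgep was not called for both hairpins without shCtr replicate 1, 2 or 3 or shOSGEP#1 replicate 2 (edgeR adjusted p from 0.0108 to 0.0223). Replicate 1 of shOSGEP#2 had 2 Osgep counts, under the floor of 3, or 0.432% of the shCtr mean (exact Poisson 95% interval 0.0524 to 1.56%). The size of a fold fitted to it depends on the prior count and is no bound. The fitted value for shOSGEP#2 was −7.86 (edgeR adjusted p = 0.00134) without replicate 3 and −2.78 (edgeR adjusted p = 0.0136) without replicate 1. For both hairpins it was −5.48 (edgeR adjusted p = 0.000556) and −2.94 (edgeR adjusted p = 0.00189). For shOSGEP#1 alone Osgep was called once either shOSGEP#2 library was left out, and DESeq2 called it for shOSGEP#2 and for both hairpins, on 8 and on all 9 libraries.

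The 7 melanocyte markers (Mitf, Sox10, Pmel, Dct, Tyrp1, Tyr, Mlana) were all detected. Their summed level was 6336, 6039 and 8473 CPM in shCtr, 6288, 7565 and 6839.9 CPM in shOSGEP#1 and 2617 and 3374 CPM in shOSGEP#2. Tyrp1 was the most abundant. Sox10, Pmel, Dct, Tyr and Mlana fell in shOSGEP#2 and Tyr fell in shOSGEP#1 (edgeR). Between the hairpins, Sox10, Pmel, Dct and Mlana were lower in shOSGEP#2. The fibroblast marker Col1a1 was higher there than in shOSGEP#1 (log2 fold change 2.66, edgeR adjusted p = 0.00750). Against shCtr it was not called in shOSGEP#2 (log2 fold change 2.06, edgeR adjusted p = 0.0250). Between the hairpins Col3a1 and Pdgfra were not called (edgeR adjusted p = 0.470 and 0.431), and Dcn was not tested. In shOSGEP#2 Col3a1 had 0.0786 and 5.30 CPM, Pdgfra 4.44 and 0.939 CPM, and Dcn 0.0786 and 0 CPM. Fibroblast markers (Col1a1, Col3a1, Pdgfra, Dcn) summed to 3.32, 4.57 and 2.97 CPM in shCtr, 3.21, 2.77 and 5.18 CPM in shOSGEP#1 and 9.58 and 20.99 CPM in shOSGEP#2, with Col1a1 the most abundant on average. Leukocyte, macrophage, endothelial and keratinocyte markers each summed to at most 4.71 CPM in the 8 libraries, with Cd3e, Cd8a, Krt5, Krt14 and Krt10 at 0 in shCtr. Of these 5, Cd3e had 25 counts in shOSGEP#2 replicate 3, Krt14 had 4 in shOSGEP#1 replicate 1 and 2 in shOSGEP#2 replicate 1, and all other values were 0. The part of these markers in the shOSGEP#2 values of the tRNA modification genes was not tested.

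The summed level of the 55 members was 1901 ± 54.5 CPM in shCtr (SD, n = 3), 1834 ± 45.6 in shOSGEP#1 (SD, n = 3) and 1690.2 ± 23.0 in shOSGEP#2 (SD, n = 2). Each shOSGEP#2 library lay below the 3 shCtr and the 3 shOSGEP#1 libraries, and shOSGEP#1 overlapped shCtr. All 55 passed the filter on low counts. Per kilobase of transcript in shCtr, Nsun2 was the most abundant at 92.1 ± 1.84 CPM per kilobase and Tyw3 the least at 0.507 ± 0.166 (SD, n = 3). The median member was at 8.29 CPM per kilobase and the median tested gene at 10.4. In this order the shCtr libraries of 48 of the 54 neighbouring pairs overlapped, so most neighbours cannot be ranked. Below, the most and the least abundant gene of a role is named by its mean CPM per kilobase in shCtr. For Trmt10c, Trmt2b, Ctu2, Trub2, Dus4l, Qtrt1, Qtrt2, Trit1 and Cdk5rap1 the shCtr libraries overlapped those of the next gene of the role, so that their place is not separated from it. Codons that begin with A, which t6A-carrying tRNAs read, made up 12.9% (Adat3) to 33.6% (Trmt10c) of the members' coding sequences. Their median was 26.5%, beside 26.9% over all tested genes.

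With shOSGEP#1, Trmt6 and Pus10 fell and 0 members rose. These 2 of 55 stand beside 9.67% of all tested genes called, 5% higher and 4.67% lower. At an unadjusted p under 0.05 there were 17 members, beside 34.9% of all genes, with 7 higher (all genes 18%) and 10 lower (all genes 16.9%). In 15 members all 3 shOSGEP#1 libraries lay above shCtr, beside 23.1% of all genes, and in 13 all lay below it, beside 22.2%. DESeq2 on the same 8 libraries called 3 members higher (Elp2, Elp3 and Tyw1) and 6 lower (Trmt6, Nsun2, Elp6, Pus10, Dus4l and Adat2), beside 19.0% of all genes. Elp3 is named after its values were seen. The median log2 fold change was −0.0191 for the members and 0.00211 for all genes.

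With shOSGEP#2, Trmt1 and Trub2 fell and 0 members rose, beside 9.55% of all genes called, 5.66% higher and 3.89% lower. Scaled by library totals in place of TMM, 70.6% of the called genes were higher, against 59.2% as reported. At an unadjusted p under 0.05 there were 16 members, beside 35.6% of all genes, with 2 higher (all genes 17.7%) and 14 lower (all genes 17.9%). DESeq2 on 8 libraries called 0 members higher and 3 lower (Trmt1, Elp6 and Trub2), beside 18.3% of all genes. The median log2 fold change was −0.23 for the members and −0.0575 for all genes, and −0.13 and 0.0346 by library totals.

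With both hairpins together, Trmt6 alone passed in edgeR, beside 9.31% of all genes, 5.04% higher and 4.27% lower. At an unadjusted p under 0.05 there were 13 members, beside 34.9% of all genes, with 2 higher (all genes 17.1%) and 11 lower (all genes 17.8%). DESeq2 on 8 libraries called 0 higher and 5 lower (Trmt1, Trmt6, Nsun2, Elp6 and Trub2), beside 18.1% of all genes. The hairpins share their controls, so the values of each are given side by side.

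Between the hairpins, 7 of 55 members differed, beside 10.8% of all genes. Trmt10a and Dus4l were higher in shOSGEP#2 (all genes 6.23%), and Trmt1, Elp2, Pus3, Trub1 and Trub2 were lower (all genes 4.56%). At an unadjusted p under 0.05 there were 19 members, beside 37.1% of all genes, with 6 higher (all genes 18%) and 13 lower (all genes 19%). DESeq2 on 8 libraries called the same 7 and, lower in shOSGEP#2, Dus3l and Tyw1, 9 in all beside 18.7% of all genes. Scaled by library totals, edgeR no longer called Trmt1, Pus3 and Trub1, and these calls also ended in a fit with a replicate block. In a fit of the compared groups alone it called only Elp2 of the 7 (all genes 5.97%), and the call of Trmt1 for shOSGEP#2 also ended. The members' share of edgeR calls was below that of all genes in each comparison with shCtr and above it between the hairpins. Between the hairpins, the side it lay on changed with the tool, the threshold and the scaling. These shares were not tested, and they are not read as a result about the 55 genes as a group.

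**Figure D1:**
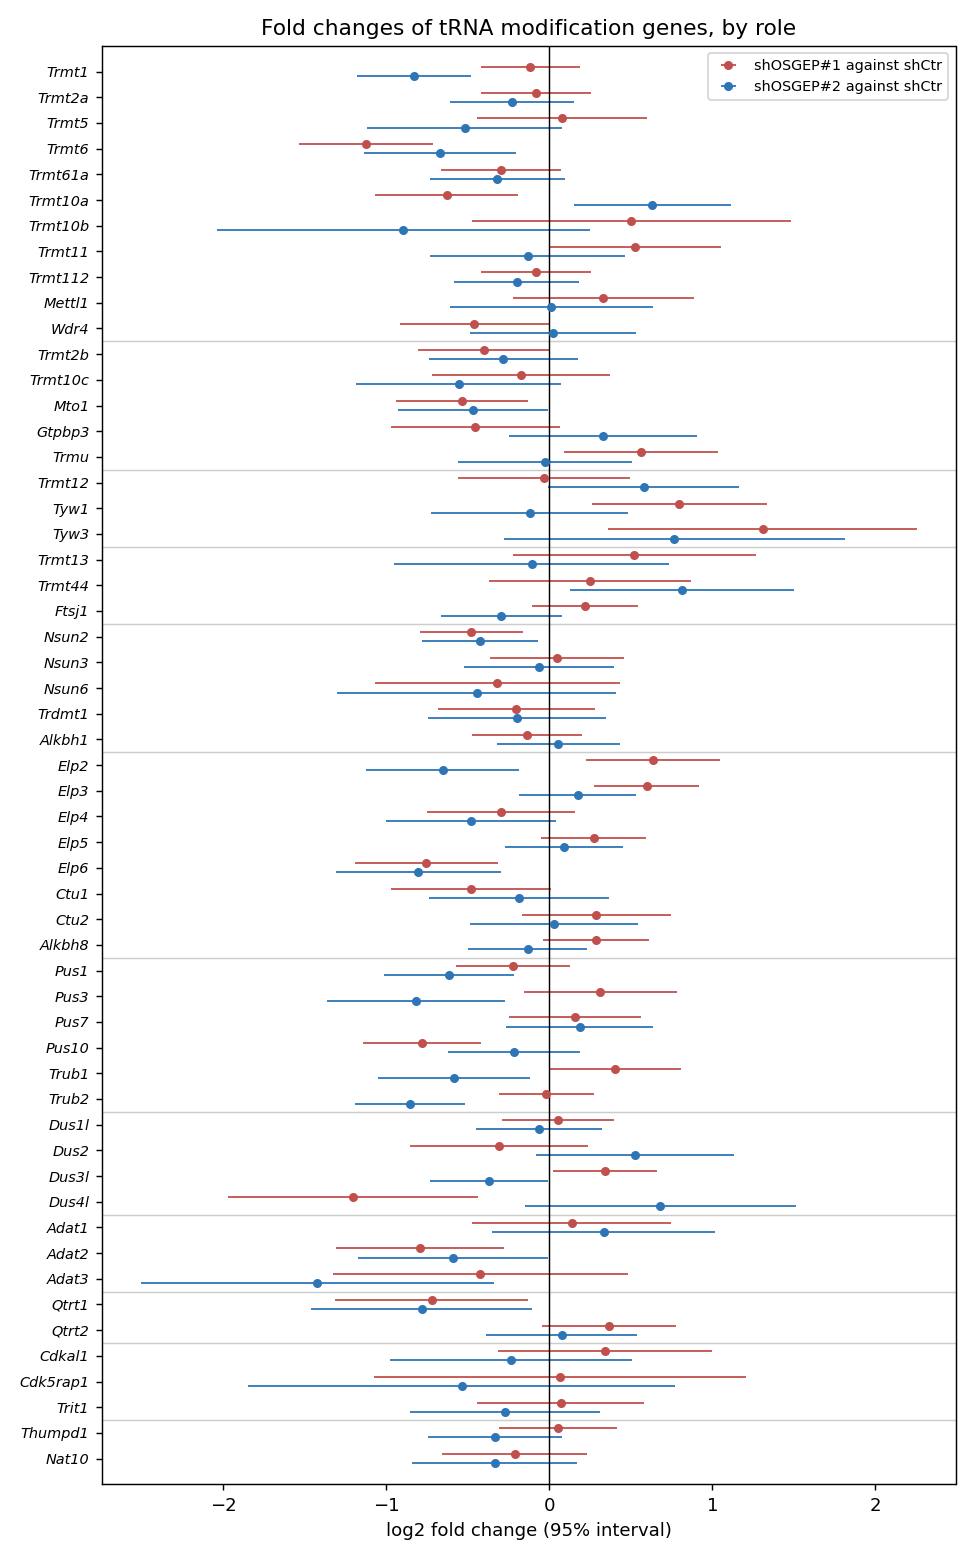
Log2 fold change against shCtr (horizontal axis) of the 55 members, grouped by role between grey lines, for shOSGEP#1 (red) and shOSGEP#2 (blue, replicates 1 and 3); bars are 95% intervals of the edgeR fit. Most intervals include 0, and those of Trmt10a, Elp2, Trub1 and Dus3l leave it out on opposite sides for the hairpins.

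Among the base methyltransferases, Trmt6 had 61.7, 64.1 and 56.7 CPM in shCtr, 27.3, 25.7 and 31.4 CPM in shOSGEP#1, and 30.8 and 51.2 CPM in shOSGEP#2. Trmt6 is the non-catalytic partner of Trmt61a, with which it methylates adenosine in the T loop. The 5 shOSGEP libraries compared all lay below shCtr, and shOSGEP#2 replicate 3 came nearest to it. On the log2 scale the fold change was −1.13 (SE 0.188, edgeR adjusted p = 0.00232) for shOSGEP#1, −0.67 (SE 0.212, edgeR adjusted p = 0.0445) for shOSGEP#2 and −0.90 (SE 0.165, edgeR adjusted p = 0.00383) for both. Trmt6 was not called for shOSGEP#1 without shCtr replicate 1 or 2 or shOSGEP#1 replicate 2 (edgeR adjusted p from 0.0120 to 0.0155). Trmt6 was not called for both hairpins without shCtr replicate 1, 2 or 3 or shOSGEP#1 replicate 2 (edgeR adjusted p from 0.0118 to 0.0276).

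Trmt1, which dimethylates a guanosine between the D and anticodon stems, had 93.2, 97.0 and 94.6 CPM in shCtr, 85.2, 87.0 and 92.5 CPM in shOSGEP#1, and 62.4 and 51.2 CPM in shOSGEP#2. Both shOSGEP#2 libraries lay well below all others, while shOSGEP#1 lay just below shCtr. Its log2 fold change was −0.12 (SE 0.138, edgeR adjusted p = 0.588) for shOSGEP#1 and −0.83 (SE 0.159, edgeR adjusted p = 0.00442) for shOSGEP#2, and the difference between the hairpins was −0.71 (SE 0.159, edgeR adjusted p = 0.00873). Trmt1 was not called for shOSGEP#2 without shCtr replicate 1, 2 or 3 or shOSGEP#2 replicate 3 (edgeR adjusted p from 0.0130 to 0.0367). Trmt1 did not differ past the threshold between the hairpins without shCtr replicate 1, 2 or 3, shOSGEP#1 replicate 1, 2 or 3 or shOSGEP#2 replicate 3 (edgeR adjusted p from 0.0135 to 0.0682).

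Trmt10a methylates guanosine near the acceptor stem. It had 20.2, 19.1 and 19.8 CPM in shCtr, 10.3, 13.4 and 14.9 CPM in shOSGEP#1, and 27.7 and 37.7 CPM in shOSGEP#2. The 3 groups did not overlap, with shOSGEP#1 lowest and shOSGEP#2 highest. Fold changes on the log2 scale were −0.63 (SE 0.199, edgeR adjusted p = 0.0435) for shOSGEP#1 and 0.63 (SE 0.219, edgeR adjusted p = 0.0627) for shOSGEP#2, neither past the threshold, and the difference between them was 1.26 (SE 0.219, edgeR adjusted p = 0.00223). Trmt10a did not differ past the threshold between the hairpins without shOSGEP#2 replicate 3 (edgeR adjusted p 0.0170).

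Trmt112, which stabilizes several methyltransferases, was the most abundant of these 11 genes at 40.1 ± 3.26 CPM per kilobase in shCtr, and 33.2% of its exons overlap Prdx5 on the opposite strand. It had 38.0, 37.3 and 43.2 CPM in shCtr, 34.1, 36.5 and 42.6 CPM in shOSGEP#1, and 35.1 and 38.5 CPM in shOSGEP#2, and the groups overlapped. The least abundant was Trmt10b, at 2.54 ± 0.121 CPM per kilobase. Trmt10b had 5.31, 5.47 and 4.98 CPM in shCtr, 6.54, 6.85 and 9.15 CPM in shOSGEP#1, and 4.75 and 1.07 CPM in shOSGEP#2, with shOSGEP#1 above shCtr and shOSGEP#2 below it, replicate 3 furthest. Over the 11 genes, log2 fold changes ran from −1.13 to 0.53 for shOSGEP#1 and from −0.90 to 0.63 for shOSGEP#2.

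Nsun2, which methylates cytosine in many tRNAs, was the most abundant of the cytosine group and of all members. It had 264, 255 and 264 CPM in shCtr, 205, 189 and 173 CPM in shOSGEP#1, and 229 and 186 CPM in shOSGEP#2. Both hairpins gave libraries below every shCtr library. In log2 terms the change was −0.48 (SE 0.144, edgeR adjusted p = 0.0357) for shOSGEP#1 and −0.42 (SE 0.162, edgeR adjusted p = 0.0869) for shOSGEP#2, and neither passed in edgeR, while DESeq2 on 8 libraries called Nsun2 for shOSGEP#1 and for both hairpins. Nsun6, a cytosine methyltransferase and the least abundant of the 5 genes, had 9.10, 9.59 and 7.27 CPM in shCtr, 7.09, 6.15 and 7.75 CPM in shOSGEP#1, and 9.58 and 3.75 CPM in shOSGEP#2, with overlapping groups.

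Ftsj1, a ribose methyltransferase of the anticodon loop, had 30.9, 29.3 and 28.01 CPM in shCtr, 35.0, 32.6 and 35.8 CPM in shOSGEP#1, and 25.9 and 25.2 CPM in shOSGEP#2. Its libraries were higher than shCtr in shOSGEP#1 and lower in shOSGEP#2, at log2 fold changes of 0.22 and −0.29 that did not pass the test. Trmt13, which methylates ribose in the acceptor stem and was the least abundant of the 3 ribose methyltransferases, had 5.11, 4.52 and 4.59 CPM in shCtr, 4.54, 6.55 and 9.51 CPM in shOSGEP#1, and 5.18 and 4.16 CPM in shOSGEP#2. Its groups overlapped.

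Elongator and the thiolation enzymes act on the wobble uridine. Elp2, a scaffold subunit of Elongator, had 57.8, 60.0 and 47.4 CPM in shCtr, 91.1, 82.3 and 85.4 CPM in shOSGEP#1, and 45.3 and 28.8 CPM in shOSGEP#2. The groups did not overlap, with shOSGEP#1 above shCtr and shOSGEP#2 below it. Its log2 fold change was 0.64 (SE 0.187, edgeR adjusted p = 0.0330) for shOSGEP#1 and −0.65 (SE 0.214, edgeR adjusted p = 0.0510) for shOSGEP#2, and the difference between the hairpins was −1.29 (SE 0.219, edgeR adjusted p = 0.00196). Elp2 did not differ past the threshold between the hairpins without shOSGEP#2 replicate 3 (edgeR adjusted p 0.0129). The change with shOSGEP#1 was called by DESeq2 on 8 libraries, by edgeR on the compared groups alone and without shOSGEP#2 replicate 3, and that with shOSGEP#2 without its replicate 1.

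Elp6, of the Elongator subcomplex with Elp4 and Elp5, had 17.5, 22.6 and 20.8 CPM in shCtr, 14.0, 11.9 and 10.6 CPM in shOSGEP#1, and 11.7 and 13.2 CPM in shOSGEP#2. None of the 5 shOSGEP libraries compared reached the lowest shCtr library. The log2 fold change was −0.76 (SE 0.200, edgeR adjusted p = 0.0210) for shOSGEP#1 and −0.80 (SE 0.230, edgeR adjusted p = 0.0298) for shOSGEP#2, short of the threshold in edgeR, while DESeq2 on 8 libraries called it for each hairpin and for both together. Elp5, the most abundant of the 8 wobble uridine genes per length, had 53.6, 46.7 and 42.1 CPM in shCtr, 59.3, 60.2 and 53.9 CPM in shOSGEP#1, and 50.7 and 57.4 CPM in shOSGEP#2. It was above shCtr in shOSGEP#1 and overlapped it in shOSGEP#2. Ctu2, the partner of the thiolase Ctu1 with the lowest mean per length, overlapping Alkbh8, had 17.1, 14.2 and 14.95 CPM in shCtr, 20.7, 18.8 and 17.5 CPM in shOSGEP#1, and 19.9 and 13.4 CPM in shOSGEP#2, and 47.3% of its exons overlap Piezo1 on the opposite strand. The shOSGEP#1 libraries of Ctu2 were above shCtr, and shOSGEP#2 overlapped it.

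**Figure D2:**
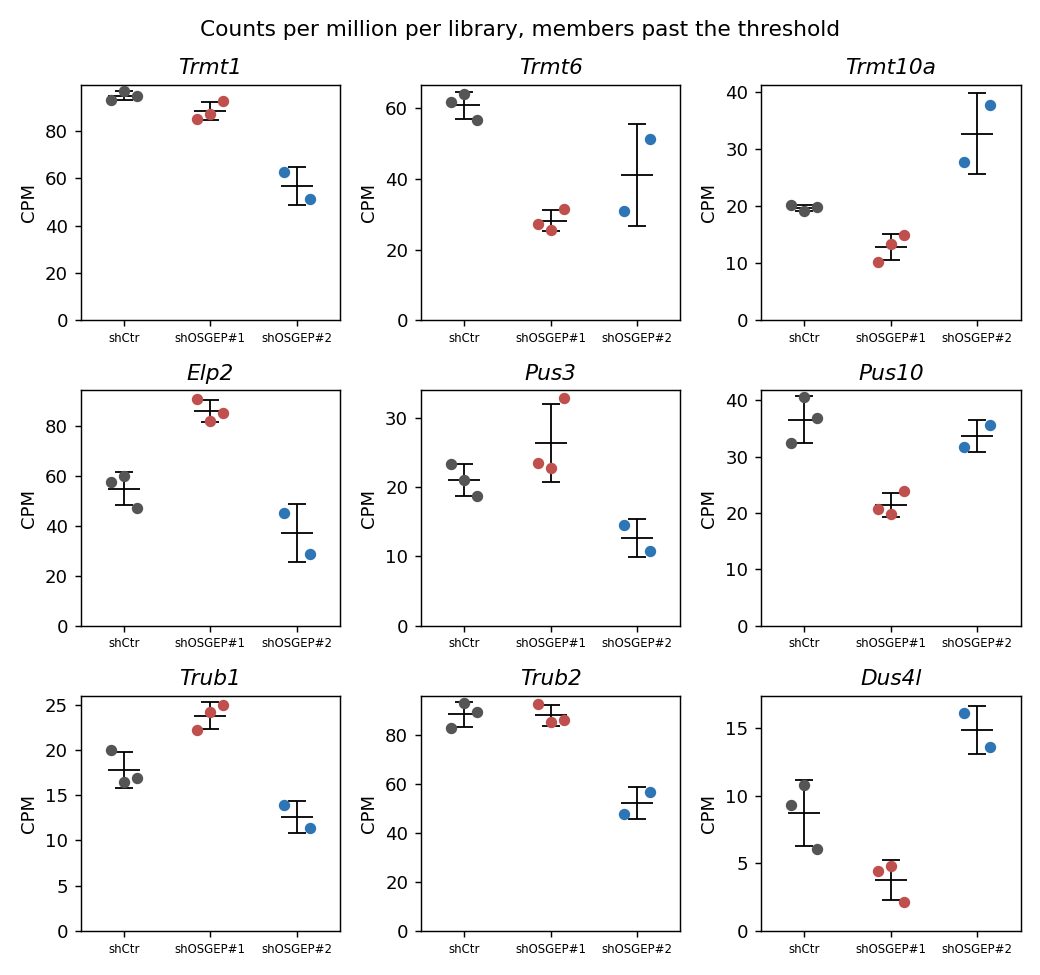
CPM (vertical axis, from 0) in each library of the 9 members with an edgeR adjusted p under 0.01 in any comparison; points are libraries, bars the mean ± SD, and shOSGEP#2 replicate 2 is left out. Trmt10a and Dus4l are highest in shOSGEP#2, while Elp2 and Trub1 are highest in shOSGEP#1.

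Pseudouridine synthases turn uridine into its isomer. Pus10 had 32.3, 40.5 and 36.8 CPM in shCtr, 20.7, 19.8 and 23.8 CPM in shOSGEP#1, and 31.6 and 35.6 CPM in shOSGEP#2. Every shOSGEP#1 library lay below every other library, and shOSGEP#2 overlapped shCtr. On the log2 scale the fold change was −0.78 (SE 0.165, edgeR adjusted p = 0.00720) for shOSGEP#1 and −0.22 (SE 0.184, edgeR adjusted p = 0.425) for shOSGEP#2. Pus10 was not called for shOSGEP#1 without shCtr replicate 1, 2 or 3 or shOSGEP#1 replicate 1 or 2 (edgeR adjusted p from 0.0177 to 0.0496).

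Trub2, a mitochondrial synthase with the highest mean of the 6 per length, overlapping Pus1, had 82.6, 92.8 and 89.3 CPM in shCtr, 92.7, 85.1 and 85.9 CPM in shOSGEP#1, and 47.6 and 56.9 CPM in shOSGEP#2. Both shOSGEP#2 libraries were far below the other 6, which overlapped. Its log2 fold change was −0.02 (SE 0.133, edgeR adjusted p = 0.937) for shOSGEP#1 and −0.85 (SE 0.153, edgeR adjusted p = 0.00309) for shOSGEP#2, with a difference of −0.83 (SE 0.153, edgeR adjusted p = 0.00303). Trub2 was not called for shOSGEP#2 without shCtr replicate 2 or shOSGEP#2 replicate 1 or 3 (edgeR adjusted p from 0.01002 to 0.0184). Trub2 did not differ past the threshold between the hairpins without shOSGEP#1 replicate 1 or 2 or shOSGEP#2 replicate 1 or 3 (edgeR adjusted p from 0.01002 to 0.0169).

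Trub1, the least abundant synthase, had 20.03, 16.5 and 16.9 CPM in shCtr, 22.2, 24.2 and 25.0 CPM in shOSGEP#1, and 13.9 and 11.3 CPM in shOSGEP#2. It was above shCtr in shOSGEP#1 and below it in shOSGEP#2, without overlap. Neither hairpin passed against shCtr (0.41 and −0.59), and the difference between them was −0.99 (SE 0.214, edgeR adjusted p = 0.00749). Trub1 did not differ past the threshold between the hairpins without shCtr replicate 1, 2 or 3, shOSGEP#1 replicate 1, 2 or 3 or shOSGEP#2 replicate 3 (edgeR adjusted p from 0.0117 to 0.0466).

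Pus3, which acts in the anticodon stem, had 23.3, 21.005 and 18.7 CPM in shCtr, 23.4, 22.8 and 32.8 CPM in shOSGEP#1, and 14.5 and 10.7 CPM in shOSGEP#2. The shOSGEP#2 libraries were lowest, and shOSGEP#1 overlapped shCtr. The difference between the hairpins was −1.13 (SE 0.250, edgeR adjusted p = 0.00854). For Pus3, 88.1% of the exons overlap Hyls1 on the opposite strand, so reads of the shared part fit both genes unless strand was used in counting. Pus3 did not differ past the threshold between the hairpins without shCtr replicate 1, 2 or 3, shOSGEP#1 replicate 1, 2 or 3 or shOSGEP#2 replicate 3 (edgeR adjusted p from 0.0125 to 0.0629).

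Dihydrouridine synthases reduce uridine, most of them in the D loop. Dus4l, with the lowest mean of the 4 per length, overlapping Dus2, had 9.32, 10.8 and 6.03 CPM in shCtr, 4.46, 4.80 and 2.12 CPM in shOSGEP#1, and 16.1 and 13.6 CPM in shOSGEP#2. The 3 groups did not overlap, with shOSGEP#1 lowest and shOSGEP#2 highest. Against shCtr the log2 fold change was −1.21 (SE 0.349, edgeR adjusted p = 0.0308) for shOSGEP#1 and 0.68 (SE 0.378, edgeR adjusted p = 0.224) for shOSGEP#2, and the difference between them was 1.89 (SE 0.382, edgeR adjusted p = 0.00530), the largest of the 55. DESeq2 on 8 libraries called Dus4l for shOSGEP#1. Dus4l did not differ past the threshold between the hairpins without shCtr replicate 1 or 2, shOSGEP#1 replicate 1 or 2 or shOSGEP#2 replicate 1 or 3 (edgeR adjusted p from 0.0104 to 0.0194). Dus1l, the most abundant, had 81.2, 96.9 and 91.4 CPM in shCtr, 97.8, 84.2 and 100.1 CPM in shOSGEP#1, and 76.4 and 108 CPM in shOSGEP#2. Its groups overlapped.

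Without shOSGEP#2 replicate 3, 0 members differed between the hairpins in edgeR, beside 5.58% of all genes, with 16 at an unadjusted p under 0.05 (all genes 29.0%). Without shOSGEP#2 replicate 1 the number that differed was 10, beside 11.3% of all genes. Against shCtr, shOSGEP#2 had 0 members called without replicate 3 (all genes 4.74%) and 6 at an unadjusted p under 0.05 (all genes 27.2%). Without replicate 1 it had 5 (all genes 9.35%), which were Trmt1, Trmt5, Trmt10b, Elp2 and Cdk5rap1. Trmt5 is named after its values were seen.

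Adat2, the catalytic subunit that makes wobble inosine with Adat3, had 11.3, 12.1 and 10.7 CPM in shCtr, 6.89, 6.45 and 6.48 CPM in shOSGEP#1, and 9.11 and 6.91 CPM in shOSGEP#2. Each of the 5 shOSGEP libraries lay below shCtr. Fold changes on the log2 scale were −0.80 (SE 0.234, edgeR adjusted p = 0.0330) for shOSGEP#1 and −0.59 (SE 0.266, edgeR adjusted p = 0.137) for shOSGEP#2, of which DESeq2 on 8 libraries called the first, and 17.0% of its exons overlap Pex3 on the opposite strand. Adat1, which deaminates an adenosine beside the anticodon and was the least abundant of the 3, had 6.02, 5.40 and 4.40 CPM in shCtr, 6.37, 5.69 and 5.51 CPM in shOSGEP#1, and 6.83 and 7.38 CPM in shOSGEP#2. Both shOSGEP#2 libraries were above shCtr, by 0.33 on the log2 scale (95% interval −0.35 to 1.02).

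Qtrt1 and Qtrt2 form the enzyme that inserts queuosine. Qtrt1 had 15.1, 13.8 and 11.9 CPM in shCtr, 10.8, 8.70 and 5.47 CPM in shOSGEP#1, and 8.05 and 8.85 CPM in shOSGEP#2. The shOSGEP libraries all lay below shCtr, with log2 fold changes of −0.72 (SE 0.268, edgeR adjusted p = 0.0776) and −0.78 (SE 0.309, edgeR adjusted p = 0.0955). Qtrt2 had 23.8, 27.0 and 19.7 CPM in shCtr, 32.3, 28.4 and 31.2 CPM in shOSGEP#1, and 29.97 and 22.7 CPM in shOSGEP#2. It was above shCtr in shOSGEP#1 and overlapped it in shOSGEP#2.

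Cdkal1 adds a methylthio group to t6A itself. It had 14.5, 12.4 and 10.5 CPM in shCtr, 15.5, 16.9 and 15.5 CPM in shOSGEP#1, and 15.7 and 6.504 CPM in shOSGEP#2. The shOSGEP#1 libraries lay above shCtr, and the shOSGEP#2 libraries on either side of it. In log2 terms the change was 0.34 (SE 0.297, edgeR adjusted p = 0.456) for shOSGEP#1 (95% interval −0.31 to 1.00) and −0.24 (SE 0.338, edgeR adjusted p = 0.648) for shOSGEP#2 (95% interval −0.98 to 0.51). Trit1, which adds the isopentenyl group and had the highest mean of these 3 per length, overlapping Cdkal1, had 9.47, 10.6 and 10.8 CPM in shCtr, 12.2, 12.1 and 8.27 CPM in shOSGEP#1, and 8.56 and 9.65 CPM in shOSGEP#2, with overlapping groups. Cdk5rap1, a methylthiolase of mitochondrial tRNAs with the lowest mean per length, overlapping Cdkal1 too, had 9.20, 7.64 and 5.84 CPM in shCtr, 9.20, 8.64 and 6.09 CPM in shOSGEP#1, and 9.43 and 1.34 CPM in shOSGEP#2. Only shOSGEP#2 replicate 3 stood low.

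Of the mitochondrial enzymes, Mto1, which with Gtpbp3 modifies the wobble uridine, had 24.1, 22.7 and 23.8 CPM in shCtr, 17.3, 18.5 and 13.2 CPM in shOSGEP#1, and 18.3 and 18.04 CPM in shOSGEP#2. Both hairpins gave libraries below every shCtr library, with log2 fold changes of −0.54 (SE 0.184, edgeR adjusted p = 0.0581) and −0.47 (SE 0.209, edgeR adjusted p = 0.134). Trmt10c, a methyltransferase subunit of mitochondrial RNase P with the highest mean of the 5 per length, overlapping Mto1, had 27.9, 33.5 and 32.8 CPM in shCtr, 23.1, 24.2 and 37.0 CPM in shOSGEP#1, and 16.1 and 30.04 CPM in shOSGEP#2. Trmt2b, a uridine methyltransferase with the lowest mean per length, overlapping Gtpbp3, had 18.4, 22.3 and 18.8 CPM in shCtr, 16.7, 14.95 and 13.8 CPM in shOSGEP#1, and 15.99 and 18.9 CPM in shOSGEP#2. Groups overlapped for Trmt10c, and for Trmt2b only shOSGEP#1 lay wholly below shCtr.

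Wybutosine is a tricyclic guanosine of phenylalanine tRNA. Tyw1, which forms its ring and was the most abundant of the 3 genes, had 24.0, 21.3 and 16.3 CPM in shCtr, 30.5, 40.7 and 36.6 CPM in shOSGEP#1, and 25.5 and 14.3 CPM in shOSGEP#2. It was above shCtr in shOSGEP#1, where the log2 fold change of 0.80 (SE 0.245, edgeR adjusted p = 0.0390) missed the threshold in edgeR and passed in DESeq2, and it overlapped shCtr in shOSGEP#2. Tyw3, a methyltransferase of the same pathway, had 2.33, 2.99 and 1.51 CPM in shCtr, 4.66, 5.14 and 7.30 CPM in shOSGEP#1, and 2.63 and 5.77 CPM in shOSGEP#2. The shOSGEP#1 libraries were above shCtr, and shOSGEP#2 overlapped it.

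For acetylcytidine, the adaptor Thumpd1 had 90.0, 88.0 and 79.2 CPM in shCtr, 83.2, 74.6 and 111.8 CPM in shOSGEP#1, and 72.5 and 72.7 CPM in shOSGEP#2. The acetyltransferase Nat10 had 49.6, 40.1 and 43.6 CPM in shCtr, 43.4, 37.1 and 35.5 CPM in shOSGEP#1, and 46.5 and 28.1 CPM in shOSGEP#2. Thumpd1 was lower than shCtr in both shOSGEP#2 libraries (−0.33 on the log2 scale, edgeR adjusted p = 0.226), and the groups of Nat10 overlapped.

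Trmt6, Nsun2, Elp6, Adat2, Qtrt1 and Mto1 had an unadjusted p under 0.05 for both hairpins, all lower. These 6 stand beside 6.01% of all genes, and 0 members were higher for both, beside 7.82%. For Trmt10a, Elp2, Trub1 and Dus3l that p was reached in opposite directions (4 members, all genes 2.8%). Both comparisons use the same controls. Dus3l, a dihydrouridine synthase of the variable loop, is named after its values were seen and had 55.6, 54.1 and 52.4 CPM in shCtr, 72.1, 59.3 and 75.9 CPM in shOSGEP#1, and 41.8 and 47.6 CPM in shOSGEP#2. Counting libraries, 8 members had all 5 shOSGEP libraries below shCtr, beside 8.99% of all genes, and 1 had all 5 above it, beside 11.9%. Over the 55 members, log2 fold changes ran from −1.21 (Dus4l) to 1.31 (Tyw3) for shOSGEP#1 and from −1.42 (Adat3) to 0.81 (Trmt44) for shOSGEP#2, and none of these ends passed in edgeR. Adat3 and Trmt44 are named after their values were seen. Their shOSGEP#2 values ranged from −2.32 to −0.91 (Adat3) and from 0.35 to 1.17 (Trmt44) when 1 library was left out. Adat3 had 4.59, 5.21 and 7.70 CPM in shCtr, 4.46, 5.16 and 3.55 CPM in shOSGEP#1, and 3.26 and 1.27 CPM in shOSGEP#2. In the GRCm38 annotation 92.0% of its exons overlap Gm49322 on the same strand. Reads of the shared part fit both genes, and how they were divided in counting was not checked.

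A wider list of 28 other tRNA modification genes, 27 of them tested, had 1 gene that fell with shOSGEP#1 and 1 that fell with shOSGEP#2, while 0 and 0 rose (edgeR), beside the shares of all genes given above. At an unadjusted p under 0.05, 1 was higher and 4 were lower with shOSGEP#1 (all genes 18% and 16.9%), and 0 were higher and 5 lower with shOSGEP#2 (all genes 17.7% and 17.9%). Urm1, the sulfur carrier for thiolation, had 71.1, 86.9 and 88.2 CPM in shCtr, 55.1, 58.0 and 50.04 CPM in shOSGEP#1, and 47.4 and 52.6 CPM in shOSGEP#2. Each of the 5 shOSGEP libraries compared lay below shCtr, while the shallow library, at 90 counts or 158 CPM (exact Poisson 95% interval 127 to 194), lay above it. Without that library the log2 fold changes of Urm1 were −0.61 (SE 0.147, edgeR adjusted p = 0.0140), −0.81 (SE 0.168, edgeR adjusted p = 0.00670) and, for both, −0.71 (SE 0.130, edgeR adjusted p = 0.00385). Urm1 was not called for shOSGEP#2 without shCtr replicate 1, 2 or 3, shOSGEP#1 replicate 1 or 2 or shOSGEP#2 replicate 1 or 3 (edgeR adjusted p from 0.0103 to 0.0329). Urm1 was not called for both hairpins without shCtr replicate 2 or 3 (edgeR adjusted p from 0.0181 to 0.0306). Library totals, the replicate block and the fit of the compared groups alone each ended its call for shOSGEP#2. Both fits of all 9 libraries ended both calls. DESeq2 on 8 libraries also called Urm1 for shOSGEP#1. Rpusd1, a pseudouridine synthase-like protein, had 14.0, 13.4 and 13.7 CPM in shCtr, 5.33, 5.12 and 4.14 CPM in shOSGEP#1, and 12.6 and 17.0 CPM in shOSGEP#2. Only shOSGEP#1 was low, with a log2 fold change of −1.51 (SE 0.225, edgeR adjusted p = 0.00140) beside 0.01 (SE 0.246, edgeR adjusted p = 0.981) in shOSGEP#2. The shallow library had 0 counts. No single left-out library ended the Rpusd1 call for shOSGEP#1, while edgeR and DESeq2 on all 9 libraries did. The difference between the hairpins for Rpusd1 was 1.52 (SE 0.246, edgeR adjusted p = 0.00149), and those fits and the fit of the compared groups alone ended its call. DESeq2 on 8 libraries also called Rpusd1 for both hairpins.

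In the shallow library, 44 of 55 members had no count. From their level in the other shOSGEP#2 libraries, 51 were expected to have at least 3 counts, and 40 of these (78.4%) had none, beside 59.4% of all such genes. Nsun2 had 0 counts where 118 were expected. Of the 9 members called by edgeR, Trmt6 had 123 CPM (exact Poisson 95% interval 95.9 to 155), above every shCtr library, Trmt1 had 94.9 CPM (71.3 to 124), within the range of shCtr, and the other 7 had no count. Trmt12, of the wybutosine pathway and named after its values were seen, had 178 counts where 8.44 were expected, a level of 313 CPM (exact Poisson 95% interval 269 to 362). Members at 0 and members far above the other libraries stood side by side in this library, and the reason was not tested.

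**Figure D3:**
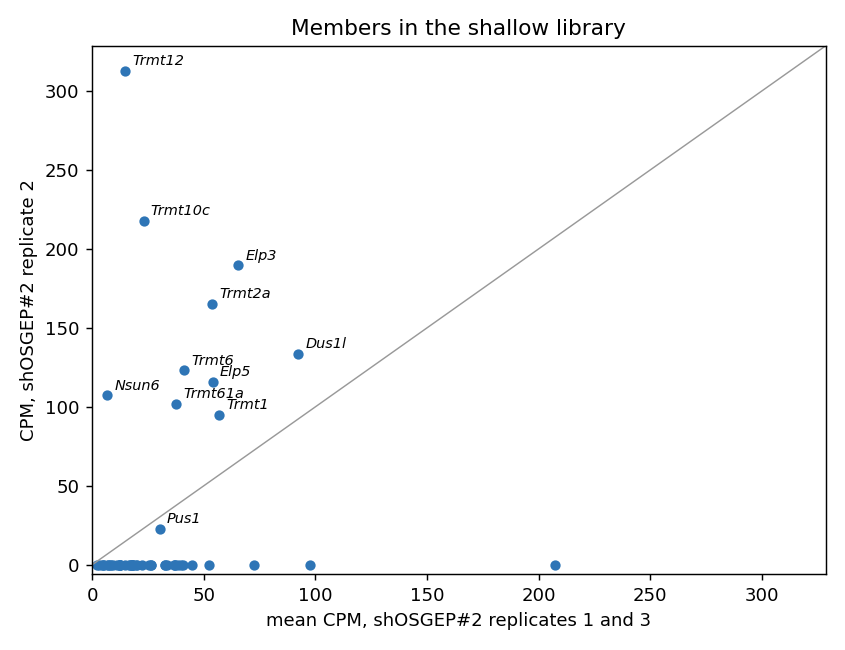
CPM of the 55 members in shOSGEP#2 replicate 2 (vertical axis) against their mean in replicates 1 and 3 (horizontal axis); the line marks equal values and genes with a count are named. The 44 members on the horizontal axis have no count, and 10 of the 11 with a count lie above the line.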

How the data were processed

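RNA bound to FLAG-RIG-I was sequenced in 9 libraries. The authors depleted ribosomal RNA, trimmed reads with Trim Galore, aligned them with STAR to GRCm39 and ran Salmon, and the deposited values are raw whole-number counts per gene. The kit marks strand, and its use in counting is not given in the sources used here. The members and lists were chosen with earlier results of these data known. So was the choice to fit 8 libraries and show shOSGEP#2 replicate 2 apart, made knowing that a fit of all 9 had called 0 genes.

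Counts of 12744 genes were tested with edgeR 4.0.16 in R 4.3.3 (TMM, filterByExpr, quasi-likelihood test, 1 coefficient per group, Benjamini-Hochberg over all genes, threshold 0.01). Standard errors were derived from each log2 fold change and its F statistic, and intervals are 95%. Alternatives were DESeq2 1.42.0 on 8 and 9 libraries, edgeR on 9, RLE normalization, library totals, other filters, a threshold of 0.05, the compared groups alone, the replicate block and leaving out each library. The scripts were tested on simulated data. Named genes are members with an adjusted p under 0.01 in any comparison or an unadjusted p under 0.05 for both hairpins in 1 direction, the most and least abundant member per length of each role, Cdkal1, Osgep, and genes of the wider list past the threshold. Dus3l, Elp3, Trmt5, Trmt12, Adat3 and Trmt44 were named after their values were seen. Lengths, codons and exons came from GENCODE annotation of GRCm38, matched by identifier. Poisson intervals and the floor of 3 counts cover counting error only.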

Additional observations from a re-analysis of the deposited data

Results flagged for a closer look

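The difference between the hairpins, tested in the same edgeR fit, passed the threshold for 7 members and 1 gene of the wider list. On the log2 scale, shOSGEP#2 minus shOSGEP#1 was −0.71 for Trmt1, −1.29 for Elp2, −1.13 for Pus3, −0.99 for Trub1 and −0.83 for Trub2. It was 1.26 for Trmt10a, 1.89 for Dus4l and 1.52 for Rpusd1. With all 9 libraries none of the 7 members passed, by edgeR or by DESeq2, where 1 and 6 members had an unadjusted p under 0.05, beside 10.7% and 14.5% of all genes.

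In shOSGEP#2 replicate 2, which the comparisons do not use, 9 members lay above every shCtr library by the lower end of their exact Poisson interval. They are 16.4% of the 55, beside 2158 (16.9%) of all tested genes. Genes of the wider list did so too, among them Urm1, at 158 CPM. The levels of the 9 were 313 CPM for Trmt12, 218 CPM for Trmt10c, 189.8 CPM for Elp3, 165 CPM for Trmt2a, 134 CPM for Dus1l, 123 CPM for Trmt6, 116 CPM for Elp5, 107 CPM for Nsun6 and 102 CPM for Trmt61a. In the same library 44 of 55 members had no count, so the 9 values are reported for that library and not for the condition.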

How the results depend on the processing

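Counts are given for shOSGEP#1, shOSGEP#2, both hairpins and shOSGEP#2 against shOSGEP#1, in that order unless named. The reported values were 1232, 1217, 1186 and 1375 genes and 2, 2, 1 and 7 members. With DESeq2 on the same 8 libraries, the counts became 2401, 2376, 2342 and 2542 genes and 9, 3, 5 and 9 members. With DESeq2 on all 9 libraries, the counts became 122, 350, 176 and 408 genes (shOSGEP#1, shOSGEP#2, both hairpins and shOSGEP#2 against shOSGEP#1) and 0, 0, 0 and 0 members (shOSGEP#1, shOSGEP#2, both hairpins and shOSGEP#2 against shOSGEP#1). With edgeR on all 9 libraries, the counts became 0, 0, 0 and 0 genes (shOSGEP#1, shOSGEP#2, both hairpins and shOSGEP#2 against shOSGEP#1) and 0, 0, 0 and 0 members (shOSGEP#1, shOSGEP#2, both hairpins and shOSGEP#2 against shOSGEP#1). With library totals in place of TMM, the counts became 4 members (shOSGEP#2 against shOSGEP#1). With no filter on low counts, the counts became 1748, 1603, 1686 and 1803 genes and 2, 2, 2 and 7 members. With a fit of the compared groups alone, the counts became 1495, 1023 and 737 genes and 3, 1 and 1 members (shOSGEP#1, shOSGEP#2 and shOSGEP#2 against shOSGEP#1). With a replicate block, the counts became 1380, 1238, 1341 and 1393 genes and 2, 2, 1 and 4 members. With an adjusted p under 0.05, the counts became 2797, 2674, 2707 and 2952 genes (shOSGEP#1, shOSGEP#2, both hairpins and shOSGEP#2 against shOSGEP#1) and 10, 6, 8 and 12 members (shOSGEP#1, shOSGEP#2, both hairpins and shOSGEP#2 against shOSGEP#1). Leaving out each of the 8 libraries in turn, the genes called ranged from 318 to 1458, from 518 to 1471, from 258 to 1351 and from 743 to 1504, and the members called from 0 to 3, from 0 to 5, from 0 to 2 and from 0 to 10. Where this left shOSGEP#2 with 1 library, that library was assumed to vary like the other groups. The fit of the compared groups alone gives no value for both hairpins together. Samples with the same replicate number correlated with r from −0.00483 to 0.178 in their deviations from the group means, across genes. Samples with different numbers gave r from −0.178 to 0.143. The 2 shOSGEP#2 libraries deviate from their mean by equal and opposite amounts, so their r values mirror each other. These values cannot decide whether the numbers mark paired experiments. The reported fit does not take the numbers as pairs. With the replicate block, 4 members were called between the hairpins, all but Trmt1, Pus3 and Trub1 of the reported 7, and Urm1 was not called for shOSGEP#2.

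Of the log2 fold changes of the named members, Osgep, Urm1 and Rpusd1 in the 4 comparisons, 168 in all, 1328 alternative values kept direction and side of the threshold, 50 kept direction and lost the call, 23 gained one and 61 changed sign. With a library left out these numbers were 1205, 65, 14 and 60. Signs changed with DESeq2 on the same 8 libraries for both hairpins Elp2 (0.00540), Dus1l (0.0115) and Dus3l (0.00139). Signs changed with DESeq2 on all 9 libraries for shOSGEP#2 Trmt10c (0.95), Nsun6 (1.63), Ctu2 (−0.49), Adat1 (−0.00106), Qtrt2 (−0.49) and Rpusd1 (−0.47), for both hairpins Trmt10a (−0.28), Trmt10c (0.40), Nsun6 (0.67), Ctu2 (−0.0918), Qtrt2 (−0.0494) and Cdkal1 (−0.18), for shOSGEP#2 against shOSGEP#1 Pus10 (−0.0284), Nsun2 (−0.57), Adat2 (−0.17), Mto1 (−0.46), Trmt10c (1.10), Trmt2b (−0.40), Nsun6 (1.93), Adat1 (−0.15) and Urm1 (0.22). Signs changed with edgeR on all 9 libraries for shOSGEP#2 Trmt10c (0.88), Nsun6 (1.52), Ctu2 (−0.46), Adat1 (−0.0421), Qtrt2 (−0.44) and Rpusd1 (−0.45), for both hairpins Trmt10a (−0.26), Trmt10c (0.35), Nsun6 (0.59), Ctu2 (−0.0896), Qtrt2 (−0.0409) and Cdkal1 (−0.18), for shOSGEP#2 against shOSGEP#1 Nsun2 (−0.50), Adat2 (−0.19), Mto1 (−0.41), Trmt10c (1.07), Elp5 (0.0138), Trmt2b (−0.35), Nsun6 (1.85), Adat1 (−0.17) and Urm1 (0.24). Signs changed with RLE normalization for both hairpins Elp2 (0.00518), Dus1l (0.0116) and Dus3l (0.00162). Signs changed with library totals in place of TMM for shOSGEP#2 Dus1l (0.0372), for both hairpins Elp2 (0.0405), Ftsj1 (0.0143), Dus1l (0.0514) and Dus3l (0.0399), for shOSGEP#2 against shOSGEP#1 Elp6 (0.0350) and Qtrt1 (0.0212). Signs changed with no filter on low counts for both hairpins Trmt10a (−0.00376). Signs changed with at least 10 counts in every library for both hairpins Elp2 (0.00111) and Dus1l (0.00852). Signs changed with a replicate block for shOSGEP#2 Ctu2 (−0.0292), for both hairpins Trmt10a (−0.0139), for shOSGEP#2 against shOSGEP#1 Qtrt1 (0.0179). With a library left out, signs changed for shOSGEP#1 in Trub2 (−0.0710 to 0.0162), Dus1l (−0.0209 to 0.12), Trit1 (−0.0197 to 0.23), Thumpd1 (−0.13 to 0.17), Cdk5rap1 (−0.0852 to 0.23), Trmt5 (−0.00799 to 0.13) and Trmt12 (−0.19 to 0.0707). With a library left out, signs changed for shOSGEP#2 in Tyw1 (−0.65 to 0.25), Dus1l (−0.30 to 0.14), Trmt13 (−0.32 to 0.0643), Nsun6 (−1.33 to 0.0824), Ctu2 (−0.33 to 0.31), Qtrt2 (−0.18 to 0.28), Cdk5rap1 (−2.62 to 0.25), Nat10 (−0.79 to 0.000747), Cdkal1 (−1.07 to 0.27) and Rpusd1 (−0.19 to 0.18). With a library left out, signs changed for both hairpins in Trmt10a (−0.10 to 0.0870), Elp2 (−0.21 to 0.14), Trub1 (−0.19 to 0.00294), Dus1l (−0.12 to 0.0937), Trmt10b (−0.96 to 0.15), Ctu2 (−0.0218 to 0.30), Cdk5rap1 (−1.28 to 0.16), Cdkal1 (−0.37 to 0.30) and Dus3l (−0.0508 to 0.0352). With a library left out, signs changed for shOSGEP#2 against shOSGEP#1 in Nsun2 (−0.14 to 0.23), Elp6 (−0.14 to 0.0697), Adat2 (−0.0496 to 0.41), Qtrt1 (−0.28 to 0.17), Mto1 (−0.0581 to 0.17), Dus1l (−0.35 to 0.0886), Nsun6 (−1.01 to 0.41), Ctu2 (−0.62 to 0.0191), Cdk5rap1 (−2.68 to 0.19), Nat10 (−0.57 to 0.22) and Osgep (−4.75 to 0.32). The cause of these changes was not tested. In shOSGEP#2 replicate 2 Trmt10c and Nsun6 had 218 and 107 CPM. At its total of 568995 counts, a level under 5.27 CPM falls below 3 counts.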
